A study of Arabidopsis thaliana with 2 samples.

Results

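In Arabidopsis thaliana stems, 200 nuclear genes stood out for a high signal in the wild-type stem and for a difference of less than 2-fold in stems overexpressing AtC3H14. The measurement was made with ATH1 GeneChips of Affymetrix, where a group of short probes, called a probe set, reads a transcript. Probe sets entered if the platform annotation named 1 gene for them and gave it no symbol beyond its AT locus code, if the gene was not encoded in the plastid, and if the signal in 35S::AtC3H14 over that in wild type was above 0.5 and below 2. Of the 22746 probe sets without controls, 11933 were of this locus-code-only kind and 8638 of these lay within the ratio limits. The 200 with the highest wild-type signal are the members, and by that annotation they read 200 different genes. For 1 member, AT3G26070, the probe set is of a type that can match more than 1 similar transcript. Without probe sets of such types 199 of the members were selected again. The members were chosen by their wild-type signal and by this ratio, so both values are given for them as descriptions, with no test.

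The overexpressing stems came from plants of the Columbia (Col-0) background carrying 35S::AtC3H14, in which the gene is driven by the cauliflower mosaic virus 35S promoter, active in most plant tissues. The other stems came from wild-type Col-0 plants. Both were soil-grown for 30 days at 23 °C under a cycle of 16 h light and 8 h dark, the harvested stem ran from the base to the third internode, and 10 ug of total RNA went into labelling. There was 1 sample and 1 array of each, so no difference could be set against variation between plants and no p-value or error is given; the number of plants and of transgenic lines is not stated by the labels. In bulk stem RNA, fewer cells of a type and less RNA per cell cannot be told apart.

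AtC3H14 (AT1G66810), a CCCH zinc finger protein gene, had a signal of 8655 in the 35S::AtC3H14 stem, against 244 in the wild-type stem, 35.5-fold higher, which is the direction of the labels. Signals are MAS5 values on a linear scale, and a signal depends on the probes as well as on the transcript, so the order of members is an order of signals. A floor of 104 (the 40th percentile of all signals without controls) marked dim probe sets, and all 200 members lay above it on both arrays. The 3 green-tissue markers that could be read, RCA, LHCB4.1 and PRK, had signals from 6855 to 19298 in the 35S::AtC3H14 stem and from 6427 to 18741 in the wild-type stem. Of the root markers, the cell-wall expansin genes EXPA7 and EXPA18 lay below the floor on both arrays, while PYK10, a beta-glucosidase gene, had 56.4 in the 35S::AtC3H14 stem and 614 in the wild-type stem; the part of root tissue in the members' values was not tested. The anther gene AT5G07230 lay below the floor on both arrays. No listed marker of xylem and fibre, phloem, epidermis or seed had a probe set naming it alone, so the stem tissues themselves were not checked here.

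A green inflorescence stem carries chloroplasts in its outer tissues, and its cells hold large vacuoles. Thylakoids, the membranes of the light reactions, fold into stacks whose edges are shaped by CURT1 proteins. Vacuolar proton pumps acidify the vacuole and so power transport into it. Dehydrins and other late embryogenesis abundant (LEA) proteins are hydrophilic proteins that protect cells during water loss and cold.

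The gene table used here gave a name beyond locus and clone codes for 9 of the 200 members (4.50%), against 101 of the 8638 locus-code-only probe sets within the ratio limits (1.17%). One of the 9, AT1G75280, is listed only as P3, which states no product. The other 8 code for proteins of the thylakoid, chlorophyll synthesis, the chloroplast malate shuttle, the vacuole, ion exchange and the dehydrin and LEA kinds. The other 191 members carry only codes in that table. They are named here by locus, with no product given, and their products were not analysed here. No sequence of any member was used here. These 9 were named because they carry a name, and the values given for them were seen beforehand.

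Both CURT1 members had a higher reading in the 35S::AtC3H14 stem. CURT1A (AT4G01150), a protein that bends the thylakoid membrane, had a signal of 8886 in the 35S::AtC3H14 stem and 6088 in the wild-type stem, a ratio of 1.46. CURT1C (AT1G52220) had 4054 in the 35S::AtC3H14 stem and 3311 in the wild-type stem, a ratio of 1.22. CURT1D (AT4G38100), the one other CURT1 gene with a probe set naming it alone, is no member and had 423 in the 35S::AtC3H14 stem and 293 in the wild-type stem, a ratio of 1.44. All 3 ratios were above 1 as deposited and none reached 2, but that of CURT1C was below 1 when the arrays were scaled to spiked-in hybridization controls.

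Chlorophyll synthesis and the malate shuttle were each represented by 1 member. Geranylgeranyl reductase (AT1G74470), which makes the phytol tail of chlorophyll, had nearly equal signals, 5519 in the 35S::AtC3H14 stem and 5660 in the wild-type stem, a ratio of 0.975. NADP-dependent malate dehydrogenase (AT5G58330), which exports reducing power from illuminated chloroplasts as malate, had 6231 in the 35S::AtC3H14 stem and 4490 in the wild-type stem, a ratio of 1.39. The plastidic NAD-dependent enzyme MDH, no member, had a ratio of 1.42, with 1654 in the 35S::AtC3H14 stem and 1168 in the wild-type stem. Both dehydrogenases had a ratio below 1 when scaled to those controls.

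VHA-D (AT3G58730), a stalk subunit of the vacuolar proton pump, had a signal of 4641 in the 35S::AtC3H14 stem and 3545 in the wild-type stem, a ratio of 1.31. NCL (AT1G53210), a sodium/calcium exchanger, differed the other way, with 4071 in the 35S::AtC3H14 stem and 5547 in the wild-type stem, a ratio of 0.734. HIRD11 (AT1G54410), a small dehydrin, had the lowest ratio of the named members, 0.579, with 6808 in the 35S::AtC3H14 stem and 11767 in the wild-type stem. LEA26 (AT2G44060) had almost the same signal on both arrays, 4274 in the 35S::AtC3H14 stem and 4306 in the wild-type stem. P3 (AT1G75280), the brightest member in wild type, had 18119 in the 35S::AtC3H14 stem and 19511 in the wild-type stem, a ratio of 0.929.

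**Figure D1:**
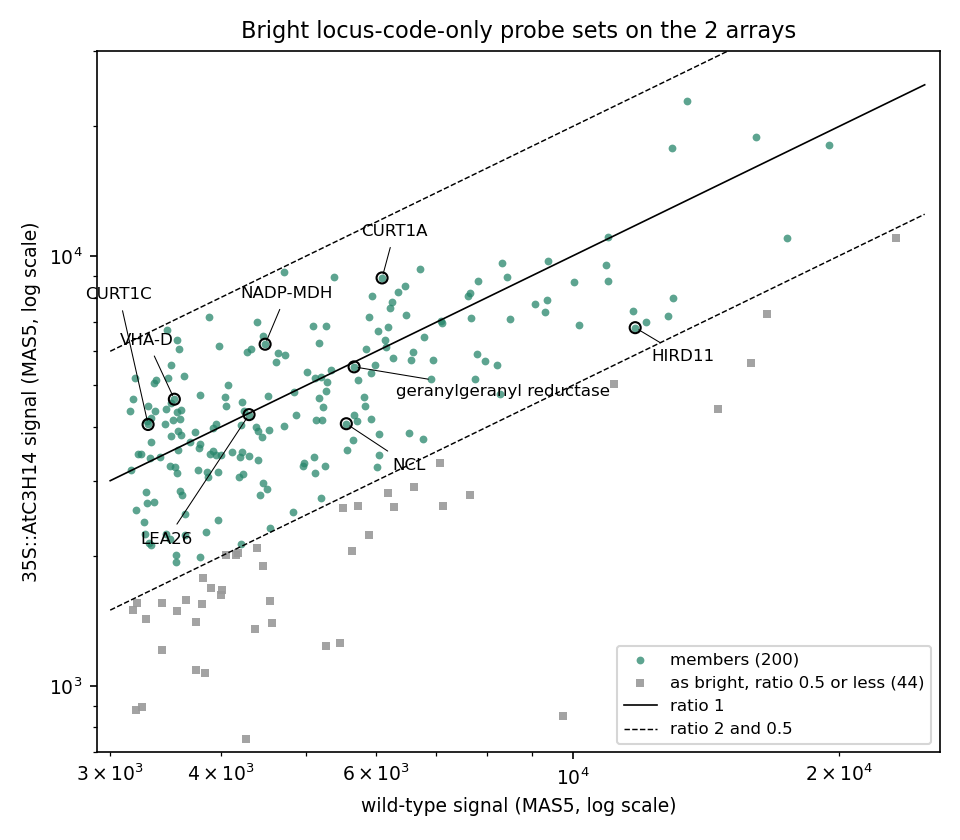
Signal in the 35S::AtC3H14 stem (vertical axis, log scale) against that in the wild-type stem (horizontal axis, log scale) for the 200 members (circles) and for the 44 locus-code-only probe sets with a ratio of 0.5 or less and a wild-type signal at or above that of the last member (squares). The 8 ringed members carry a product name; the solid line marks a ratio of 1 and the dashed lines ratios of 2 and 0.5, and no locus-code-only probe set this bright in wild type lies on or above the upper dashed line.

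The relatives of these named members were read over all probe sets naming 1 gene, with no limit on the ratio. Lists came from key words in gene names and symbols, so a list can miss genes of its kind or hold others. PSAE-1, also named PSI-E, fell into no class, so the photosynthesis list lacks it. GAMMA-VPE, a vacuolar processing enzyme, fell into central and other metabolism. Over the 12826 probe sets of any kind that reached the floor on each array, the 35S::AtC3H14 signal was higher by 2-fold or more for 4.51% and lower by 2-fold or more for 5.61%, and the median log2 ratio was 0.04. The ratio limits keep every member under 2-fold, so nothing is read from the members within these counts.

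All 16 probe sets of the photosynthesis list reached the floor on each array. LHCB4.3, a minor light-harvesting protein of photosystem II, was at least 2-fold higher (2.31-fold), with 2660 in the 35S::AtC3H14 stem and 1151 in the wild-type stem. PIFI, a chloroplast protein known from changes in chlorophyll fluorescence, was 2.25-fold lower, with 2038 in the 35S::AtC3H14 stem and 4591 in the wild-type stem. The other 14 lay under 2-fold, and the list's median log2 ratio was 0.22; the change in LHCB4.3 was under 2-fold with the scaling to hybridization controls. Ratios were above 1 for 12 probe sets and below 1 for 4, but the median became -0.31 after scaling to the hybridization controls. Those controls, 18 probe sets for RNAs spiked in at hybridization, all read higher on the 35S::AtC3H14 array, by 1.44-fold on average, and such a scaling lowers every log2 ratio by 0.52.

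In the list of tetrapyrrole and chlorophyll synthesis 8 of 11 probe sets reached the floor on each array and none of them reached 2-fold. Their median log2 ratio was 0.67, or 0.15 with the hybridization-control scaling. HEME1, of the uroporphyrinogen decarboxylase step, came nearest with 818 in the 35S::AtC3H14 stem and 423 in the wild-type stem, a ratio of 1.93. CHLM, a methyltransferase of the chlorophyll branch, had a ratio of 1.51, and PORB, which makes chlorophyllide in the light and also stands in the photosynthesis list, had 1.69. Geranylgeranyl reductase was the one of the 8 with a ratio below 1.

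The 5 vacuolar proton pump probe sets all had ratios above 1 and under 2 as deposited, and with the hybridization-control scaling that of VHA-A3 alone was above 1. VHA-D was joined by VHA-F (AT4G02620), with 3975 in the 35S::AtC3H14 stem and 2920 in the wild-type stem, and by the membrane subunits VHA-A1, VHA-A2 and VHA-A3. VHA-A3 had the highest ratio, 1.74, with 3964 in the 35S::AtC3H14 stem and 2277 in the wild-type stem. The list was formed by gene names, and the membrane in which each subunit acts was not tested. The log2 ratios ran from 0.38 to 0.80 with a median of 0.42, which became -0.11 with the hybridization-control scaling.

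The dehydrin and LEA list was mixed. Of its 9 probe sets 5 reached the floor on each array, with a median log2 ratio of -0.79 that is the value of HIRD11 itself. LTI30, a cold-induced dehydrin, was 2.12-fold lower, with 1233 in the 35S::AtC3H14 stem and 2620 in the wild-type stem. COR47, another cold-regulated dehydrin, had 3201 in the 35S::AtC3H14 stem and 6191 in the wild-type stem, a ratio of 0.517. LEA27 (AT2G46140) was 3.62-fold higher, with 720 in the 35S::AtC3H14 stem and 199 in the wild-type stem. Outside these 5, LEA4-5 was at least 2.05-fold higher and AtLEA4-1 at least 4.69-fold lower, each against the floor, and LEA and LEA18 lay below the floor on both arrays. With no floor the median over all 9 was -0.01. With the hybridization-control scaling 3 of the 5, HIRD11, COR47 and LTI30, were lower by 2-fold or more and LEA27 was still higher by 2-fold or more.

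The broad list of central and other metabolism, which holds geranylgeranyl reductase and NADP-dependent malate dehydrogenase, had 150 of 228 probe sets at the floor or above on each array and a median log2 ratio of -0.01. In it 4 were higher and 11 lower by 2-fold or more. With the hybridization-control scaling 142 of the list reached the floor on each array, of which 0 were higher and 30 lower. Over probe sets of any kind that scaling gave 177 higher and 2027 lower, against 579 and 720 as deposited. The scaled counts are therefore no result about this list alone. The 3 probe sets of the list with the largest change each way as deposited are named. DFR, an enzyme of anthocyanin synthesis, was 6.76-fold lower, with 443 in the 35S::AtC3H14 stem and 2993 in the wild-type stem. STR18, a sulfurtransferase, was 3.08-fold lower, and LKR/SDH (AT4G33150), of lysine breakdown, was 2.83-fold lower and one of the bright probe sets that the ratio limits kept out of the members. ALDH3F1, an aldehyde dehydrogenase, was 2.72-fold higher, with 1633 in the 35S::AtC3H14 stem and 601 in the wild-type stem. UPP was 2.59-fold higher, with 277 in the 35S::AtC3H14 stem and 107 in the wild-type stem, the latter close to the floor of 104. FLDH was 2.58-fold higher, with 696 in the 35S::AtC3H14 stem and 270 in the wild-type stem. The wild-type signals of UPP and FLDH lay below the 60th percentile of 308. The membrane transport list, which holds NCL, had 16 of 26 probe sets at the floor or above on each array. Their median log2 ratio was 0.06 and none was past 2-fold. With the hybridization-control scaling 15 reached the floor on each array, and 2 of these were lower by 2-fold or more.

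**Figure D2:**
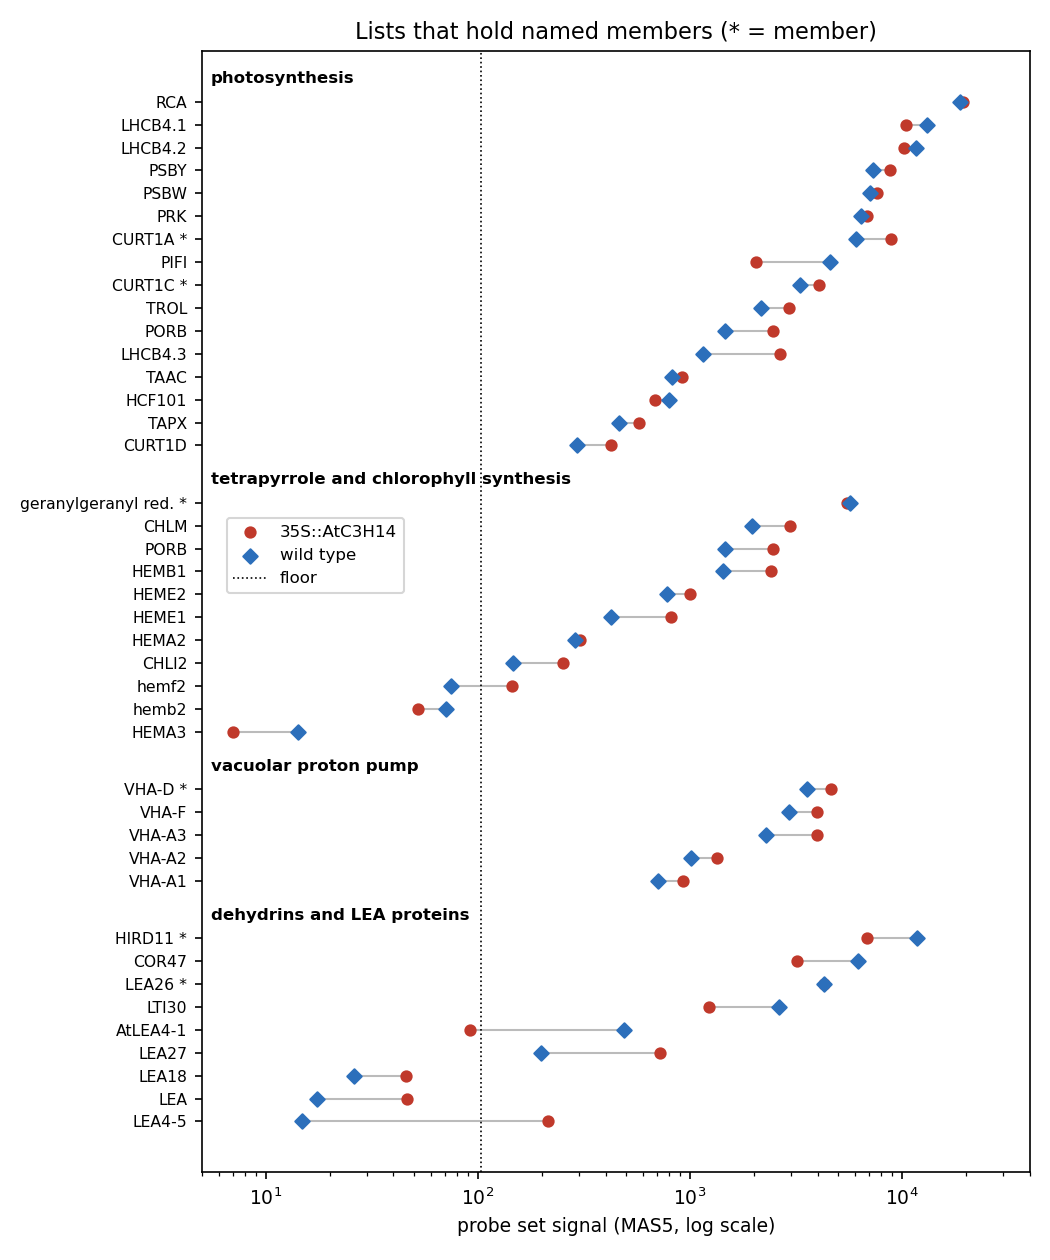
Signal (horizontal axis, log scale) of each probe set in 4 lists that hold named members, in the 35S::AtC3H14 stem (circles) and the wild-type stem (diamonds), ordered within a list by wild-type signal. Stars mark members and the dotted line the floor of 104; all 5 vacuolar pump probe sets lie higher in 35S::AtC3H14 as deposited (with the hybridization-control scaling VHA-A3 alone), while HIRD11, COR47 and LTI30 lie higher in wild type.

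The members were among the brightest of the locus-code-only kind in wild type, but most of the brightest probe sets of the array were not members. AT1G75280 stood at rank 20 of all 22746 probe sets in wild type and the last member at rank 940, and 8 members were among the 100 highest. Of the 940 probe sets at or above the last member, 200 (21.3%) were members, 545 were unlisted in the platform annotation, 89 named 1 gene with a symbol outside the plastid, 34 named several genes, 28 were plastid genes and 44 were locus-code-only probe sets outside the ratio limits. The share of probe sets this bright was 2.04% of the locus-code-only kind, 5.89% of those with a symbol, 6.24% of the unlisted ones and 40.6% of the plastid ones. When genes with any symbol were admitted, 141 of the 200 members stayed in the top 200, and the share of probe sets with a name was 33.0% in place of 4.50%. A gene with a symbol counts as named by definition, so this rise follows from the selection.

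Among the members the 35S::AtC3H14 signal ran from 1943 to 22873 with a median of 4474, and the wild-type signal from 3161 to 19511 with a median of 4531. Ratios ran from 0.507 to 1.94. There were 85 members with a ratio above 1 and 115 below it, the median log2 ratio was -0.11, and the SD over the members was 0.44. In 4 groups of 50 by falling wild-type signal, the median log2 ratios were -0.13, -0.17, -0.16 and 0.13. On the 35S::AtC3H14 array 150 of the members were among the 200 highest locus-code-only probe sets, and the lowest stood at rank 510. In all, 152 members differed by less than 1.5-fold and 45 by less than 1.1-fold. Of the 48 that differed by 1.5-fold or more, 13 were higher and 35 lower in 35S::AtC3H14. Among all 8638 locus-code-only probe sets within the ratio limits, 4845 had a ratio above 1 and 3793 below it. Of those 8638, 1347 were higher and 948 lower by 1.5-fold or more. The members were picked by wild-type signal, the divisor of the ratio, so their lean is not read as a trait of these genes. Scaled to the hybridization controls, 18 members had a ratio above 1 and 182 below it. With that scaling 43 of the members were at least 2-fold lower and lay outside the ratio limits. The scaling lowers every log2 ratio by 0.52, so this count is no result about the members alone. Over probe sets of any kind at or above the floor on each array, those at least 2-fold lower went from 720 to 2027.

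Most of the brightest members had a ratio below 1. Of the 20 with the highest wild-type signal, 5 had a ratio above 1 and 15 below it. The wild-type signal sets both the rank and the divisor of the ratio, so nothing is read from this lean. Over locus-code-only probe sets of any ratio, the top 100 by wild-type signal had a median log2 ratio of -0.27. The top 100 by 35S::AtC3H14 signal had one of 0.13. AT4G16190 had 10986 in the 35S::AtC3H14 stem and 17453 in the wild-type stem, a ratio of 0.629. AT1G78040 had 18913 in the 35S::AtC3H14 stem and 16096 in the wild-type stem, a ratio of 1.18. AT2G25510 had 22873 in the 35S::AtC3H14 stem and 13452 in the wild-type stem, a ratio of 1.70, which made it the member with the highest signal in 35S::AtC3H14. AT4G23670, AT1G13930, AT1G80170, HIRD11 and AT5G05960 had ratios between 0.567 and 0.636. Of these, AT1G13930 had 7262 in the 35S::AtC3H14 stem and 12805 in the wild-type stem, and AT5G05960 had 7439 in the 35S::AtC3H14 stem and 11693 in the wild-type stem. AT4G23670 had 7987 in the 35S::AtC3H14 stem and 12975 in the wild-type stem. AT1G09310, with 17802 in the 35S::AtC3H14 stem and 12962 in the wild-type stem, was the one member between them in wild-type rank that read higher in 35S::AtC3H14.

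The next 10 in wild-type signal lay closer together on the 2 arrays. AT5G20290 had 11053 in the 35S::AtC3H14 stem and 10949 in the wild-type stem, a ratio of 1.01. AT3G48140 had 9705 in the 35S::AtC3H14 stem and 9385 in the wild-type stem, a ratio of 1.03. The other 8 had ratios below 1. AT5G54940 was the farthest, at 0.682, with 6922 in the 35S::AtC3H14 stem and 10154 in the wild-type stem. AT2G26500 had 8736 in the 35S::AtC3H14 stem and 10977 in the wild-type stem. AT3G03150, AT5G38980, AT1G22410, AT4G27090, AT3G30390, AT2G26500 and AT3G49910 lay between 0.796 and 0.875.

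**Figure D3:**
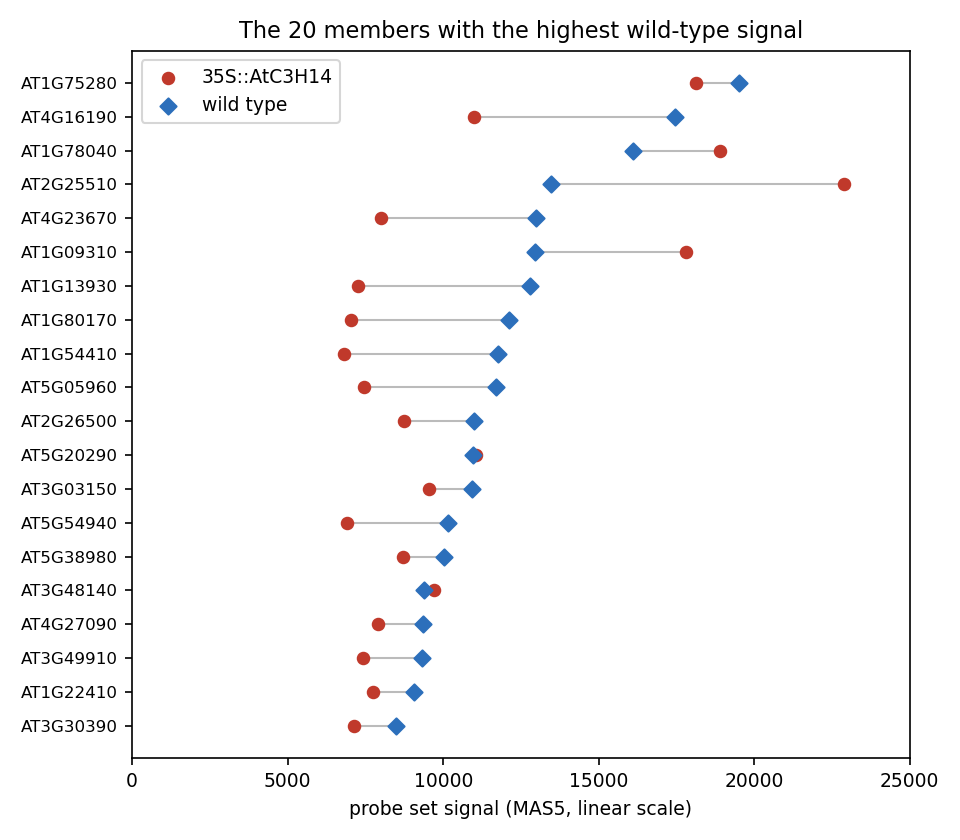
Signal (horizontal axis, linear scale) of the 20 members with the highest wild-type signal, in the 35S::AtC3H14 stem (circles) and the wild-type stem (diamonds). The circle lies to the right for 5 members and to the left for 15, and AT2G25510 has the widest gap to the right.

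Members at the ends of the ratio range were close to the limits that define the set. The 5 lowest were AT3G52800, AT1G70160, AT1G32460, AT3G29240 and AT3G54040, with ratios from 0.507 to 0.528. AT3G52800 had 2139 in the 35S::AtC3H14 stem and 4217 in the wild-type stem. AT1G70160 had 2328 in the 35S::AtC3H14 stem and 4553 in the wild-type stem. The nearest probe sets this bright beyond the lower limit were AT4G16830, at 0.496, and AT5G16110, at 0.486. The 5 highest were AT2G41090, AT3G11630, AT3G53430, AT5G47030 and AT2G25510, with ratios from 1.94 to 1.70. AT2G41090 had 9155 in the 35S::AtC3H14 stem and 4714 in the wild-type stem. AT3G11630 had 6716 in the 35S::AtC3H14 stem and 3476 in the wild-type stem. AT3G53430 had 7193 in the 35S::AtC3H14 stem and 3878 in the wild-type stem. By signal, AT1G72020 (3186 in wild type), AT5G24690 (3164) and AT5G47570 (3161) were the last inside, and AT4G21105 (3154), AT1G07750 (3129) and AT1G15740 (3125) the next outside.

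The ratio limits kept out 44 probe sets as bright in wild type as the members, all 44 with a ratio of 0.5 or less. As background, 16.9% of all 11933 locus-code-only probe sets had a ratio of 2 or more and 10.8% one of 0.5 or less, dim ones included. Of all 940 probe sets as bright in wild type as the members, 6 had a ratio of 2 or more and 130 (13.8%) one of 0.5 or less. The share at 0.5 or less was 18.0% for the 244 locus-code-only probe sets, 13.5% with a symbol and 13.2% for the unlisted. It was 5.88% for those naming several genes and 0% for the plastid ones. The brightest kept out was AT1G67865, with 11008 in the 35S::AtC3H14 stem and 23212 in the wild-type stem, 2.11-fold lower. AT1G22480 was 2.27-fold lower, AT2G25450 2.83-fold, AT3G53980 3.32-fold and AT3G15450 2.21-fold. The brightest locus-code-only probe set at 2-fold or more higher, AT3G22240, stood at rank 281, with 6036 in the 35S::AtC3H14 stem and 2912 in the wild-type stem. After it came AT2G23120, AT3G28500, AT1G49750 and AT1G04680, with ratios from 2.33 to 3.56.

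This one-sidedness moved with the array used for ranking. Of the 244 brightest locus-code-only probe sets by 35S::AtC3H14 signal, 16 had a ratio of 2 or more and 6 one of 0.5 or less, against 0 and 44 by wild-type signal. By the mean log2 signal of both arrays there were 5 and 16. By 35S::AtC3H14 signal 4 of the top 100 were at least 2-fold lower, and 3.85% at ranks 2001 to 4000. By wild-type signal 18.0% of the top 100 were at least 2-fold lower, and at ranks 2001 to 4000 the share was 5.85%. Ranked by 35S::AtC3H14 signal with the same ratio limits, 160 of the 200 members were selected again.

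**Figure D4:**
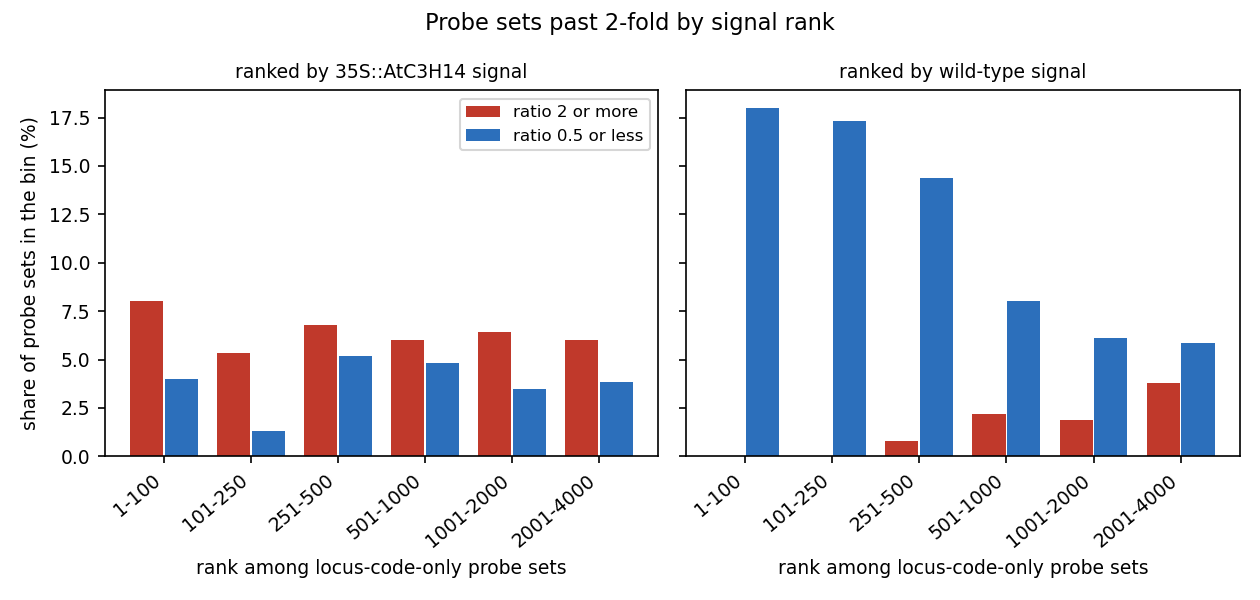
Share of locus-code-only probe sets (vertical axis, percent) with a ratio of 2 or more and of 0.5 or less, in bins of signal rank (horizontal axis), ranked by 35S::AtC3H14 signal (left) and by wild-type signal (right). By wild-type signal no probe set in the first 250 ranks was 2-fold or more higher, while by 35S::AtC3H14 signal such probe sets were found in every bin.

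Members were spread over the genome without standing next to each other. The 5 nuclear chromosomes held 55, 26, 45, 28 and 46 members, in order from chromosome 1 to chromosome 5. Chromosomes 1, 2 and 3 held 27.5%, 13.0% and 22.5% of the members, against 26.1%, 16.1% and 20.4% of the probe sets within the ratio limits. In the TAIR10.1 gene table no member had another member as its directly adjacent protein-coding gene. Of 192 adjacent genes with a probe set naming them alone, 3 (1.56%) were as bright in wild type as the members, against 2.71% of all 13333 genes read alone.

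Those 3 neighbours were named after their values were seen. AT1G67865, the brightest probe set kept out, lies beside AT1G67860, a member with 5798 in the 35S::AtC3H14 stem and 6265 in the wild-type stem. AT1G80180, 2.31-fold lower with 1686 in the 35S::AtC3H14 stem and 3900 in the wild-type stem, lies beside AT1G80170, a member with 7023 in the 35S::AtC3H14 stem and 12115 in the wild-type stem. MPPBETA, a subunit of the mitochondrial processing peptidase, lies beside AT3G02080, and had 5653 in the 35S::AtC3H14 stem and 3262 in the wild-type stem, while AT3G02080 had 6367 in the 35S::AtC3H14 stem and 6135 in the wild-type stem.

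The only member with another probe set naming it alone was AT5G24690, also named after its values were seen. That probe set, which the rule did not use, had 921 in the 35S::AtC3H14 stem and 1281 in the wild-type stem, a log2 ratio of -0.48. The probe set that made it a member had 3171 in the 35S::AtC3H14 stem and 3164 in the wild-type stem, a log2 ratio of 0.00339. Between probe sets of 1 gene the pooled SD of the log2 ratio was 0.35, over 117 probe sets of 58 genes. The SD over the members was 0.44, but it is taken over different genes and is bounded by the ratio limits. The pooled SD had no ratio limits, so these SDs are not compared. The variation of 1 member between arrays of the same group was not measured.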

How the data were processed

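Each sample's ATH1 array was deposited as linear MAS5 intensity values, a method named in the submitters' processing notes, without a version or detection calls in the sources used here. Their 2% trimmed mean was 500.04 on each array, so a shift of all transcripts together cannot be seen.

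Ratios are 35S::AtC3H14 over wild type, computed with Python 3.11.15 and pandas 2.3.3. With 1 array a group no test was run; precision is limited by the number of arrays. The selection was tested on simulated data. Names came from the platform annotation and the TAIR10.1 gene table: 13513 probe sets named 1 gene, of which 29 had no match. That table holds names and symbols, and no product text, so the 19 planned product classes were read from gene names. Of these classes the members fell into photosynthesis (2), central and other metabolism (2) and membrane transport (1), and 195 into none. Protein lengths and promoter motifs, also planned, were not analysed here, for want of sequences.

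Genes were named by rule: the 20 brightest members, the 5 highest and lowest ratios, those beside each limit, the brightest kept out by the ratio limits, and, in the classes that hold a member, the 3 largest changes each way past 2-fold. The plan had set these changes for every class, and classes without a member were left out here. The 4 further lists and the 9 named members were added after values had been seen. Members and lists were chosen with earlier results of these data known. Alternatives covered ranking, ratio limits, annotation, floor, pseudocount and scaling.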

Additional observations from a re-analysis of the deposited data

Results flagged for a closer look

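One control probe set outside the comparisons read above its wild-type level. Designed for 25S ribosomal RNA, it gave 4209 in the 35S::AtC3H14 stem and 361 in the wild-type stem, 11.6-fold higher. Its bearing on the members was not tested.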

How the results depend on the processing

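With 1 array a group no array could be left out. For the same reason no paired analysis was possible. No alternative reversed a ratio of 2-fold or more that was followed here (AtC3H14), while several list medians changed sign. With the hybridization-control scaling this held for the vacuolar pump (0.42 as deposited), photosynthesis (0.22) and membrane transport (0.06). The metabolism median, -0.01 as deposited, was above 0 with no floor, with the pseudocount and with quantile normalization. Among selections, the top 100 holds by construction 100 of the members. Admitting any symbol raised the share with a name to 33.0%, also by construction. The selection with any symbol kept 141 of the members, and the other settings of rank, ratio limits, scaling and annotation kept 152 to 200. With the hybridization-control scaling the list medians were -0.31 for photosynthesis, -1.31 for dehydrins and LEA proteins, 0.15 for tetrapyrrole synthesis, -0.11 for the vacuolar pump, -0.53 for metabolism and -0.45 for membrane transport, the log2 ratio of AtC3H14 was 4.63, 177 probe sets were 2-fold higher and 2027 lower, and the members' median was -0.63. With no floor the dehydrin and LEA median was -0.0110, and 3428 probe sets were higher and 2409 lower. With the pseudocount of 100 that median was -0.0107 and the log2 ratio of AtC3H14 was 4.67. A floor at the 60th percentile left 261 higher and 429 lower, while AtC3H14 had only a bound of 28.1-fold. Bright probe sets past 2-fold were 16 higher and 6 lower when taken by 35S::AtC3H14 signal, and 5 and 16 by mean signal, both chosen after seeing the data, as were the counts per list under other scalings. Apart from the named alternatives the causes were not tested.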
